A study of Homo sapiens with 402 samples.

Results

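PFOS (perfluorooctane sulfonic acid) is a perfluoroalkyl sulfonate, a carbon chain in which fluorine replaces hydrogen and which ends in a sulfonate group. Its dose series was one part of a screen of chemicals in MCF10A, a non-tumorigenic line of human breast epithelium. The series comprised the 16 libraries labelled PFOS, 4 at each of 0.025, 0.25, 2.5 and 25 µM, and the 12 libraries labelled as controls in DMSO, the solvent of PFOS, on the same plate, 3240-AT. These are 28 of the 402 libraries of the study. Members were chosen by their labels, not by any measured value. Exposure lasted 48 h and began on the day after plating in multi-well plates. Each lysate received its own barcode and was sequenced in a pool with the other wells of its plate. The labels describe the 4 libraries of a dose as biological replicates without naming separate passages or days, so the tests measure the spread between these wells. All groups are the same unmodified line, and of the labelled treatments only the chemical, dose and solvent differ.

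Perfluoroalkyl acids resist breakdown and bind proteins that carry fatty acids. In liver they are known to activate the fatty acid receptor PPAR alpha, and other reported targets include sterol synthesis and the nuclear receptors of foreign compounds. MCF10A cells grow as basal-like epithelium: they make keratins, and they lay down laminin-332, which holds the LAMA3 and LAMB3 chains and anchors epithelium to its basement membrane through integrins.

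PFOS libraries held 7.96 to 16.2 M (mega) counts, with a median of 10.5 M, and the DMSO controls 4.65 to 15.1 M, with a median of 8.04 M. Of the 12 markers of basal mammary epithelium, 12 were above 1 CPM (counts per mega-count of scaled library size) in the controls, with a summed level of 3282 to 4684 CPM there and 3388 to 3638 CPM at 25 µM. Of 7 leukocyte markers PTPRC, CD3E and LYZ were at 0 at 25 µM, and CD14 and CSF1R were above 1 CPM. The summed level of this list was 27.1 to 48.95 CPM at 25 µM and 15.99 to 35.4 CPM in the controls, most of it from CD14 (mean 35.7 against 22.8 CPM, log2 0.61, edgeR adjusted p = 0.375). The 5 endothelial markers summed to 1.64 to 3.198 CPM at 25 µM and 1.78 to 4.86 CPM in the controls, with VWF and CDH5 at 0 at 25 µM. The part of these cell markers in the results was not tested. The library numbers fall into a low-numbered set (dosed replicates 1 and 2, controls 33 to 38) and a high-numbered set (dosed replicates 3 and 4, controls 41 to 46), and the labels do not say what the numbers stand for. The controls of these sets differed in median depth, 12.99 against 7.02 M counts, and in several genes below. At 25 µM depth differed the other way, with 7.96 and 8.60 M counts in replicates 1 and 2 and 11.6 and 12.95 M in replicates 3 and 4. Values within each set are given for genes whose call at 25 µM was lost in a set. The share of counts from the mitochondrial genome was 6.38 to 8.96% in the PFOS libraries, and controls 34, 36 and 38 lay above all of them, up to 13.6%.

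Few genes were called at any dose in the fit of all plate libraries. The number called depended on the fit, as given further on, so few calls do not show that few genes changed. At 0.025 µM no gene of 19468 tested passed an edgeR adjusted p of 0.05 (0% called; 1071 had an unadjusted p under 0.05, and DESeq2 called 1). At 0.25 µM and at 2.5 µM 1 gene each was called, 0.00514% of those tested. At 25 µM 13 genes were called, 0.0668%: FBXO32, DHRS3, AXL and KRT8 were higher (0.0205%), and 9 were lower (0.0462%), among them HSD17B2, GDA, FN1, PID1, CXCL3, DNER, CXCL8 and PLXNA2. The linear trend over log10 dose, tested on the 4 doses without the controls, called 7 genes, 0.036%, all falling. Against the 3 lower doses together, also without the controls, 25 µM called 6 genes, 0.0308%. In bulk RNA, less of a transcript in every cell and fewer cells with it cannot be told apart.

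**Figure D1:**
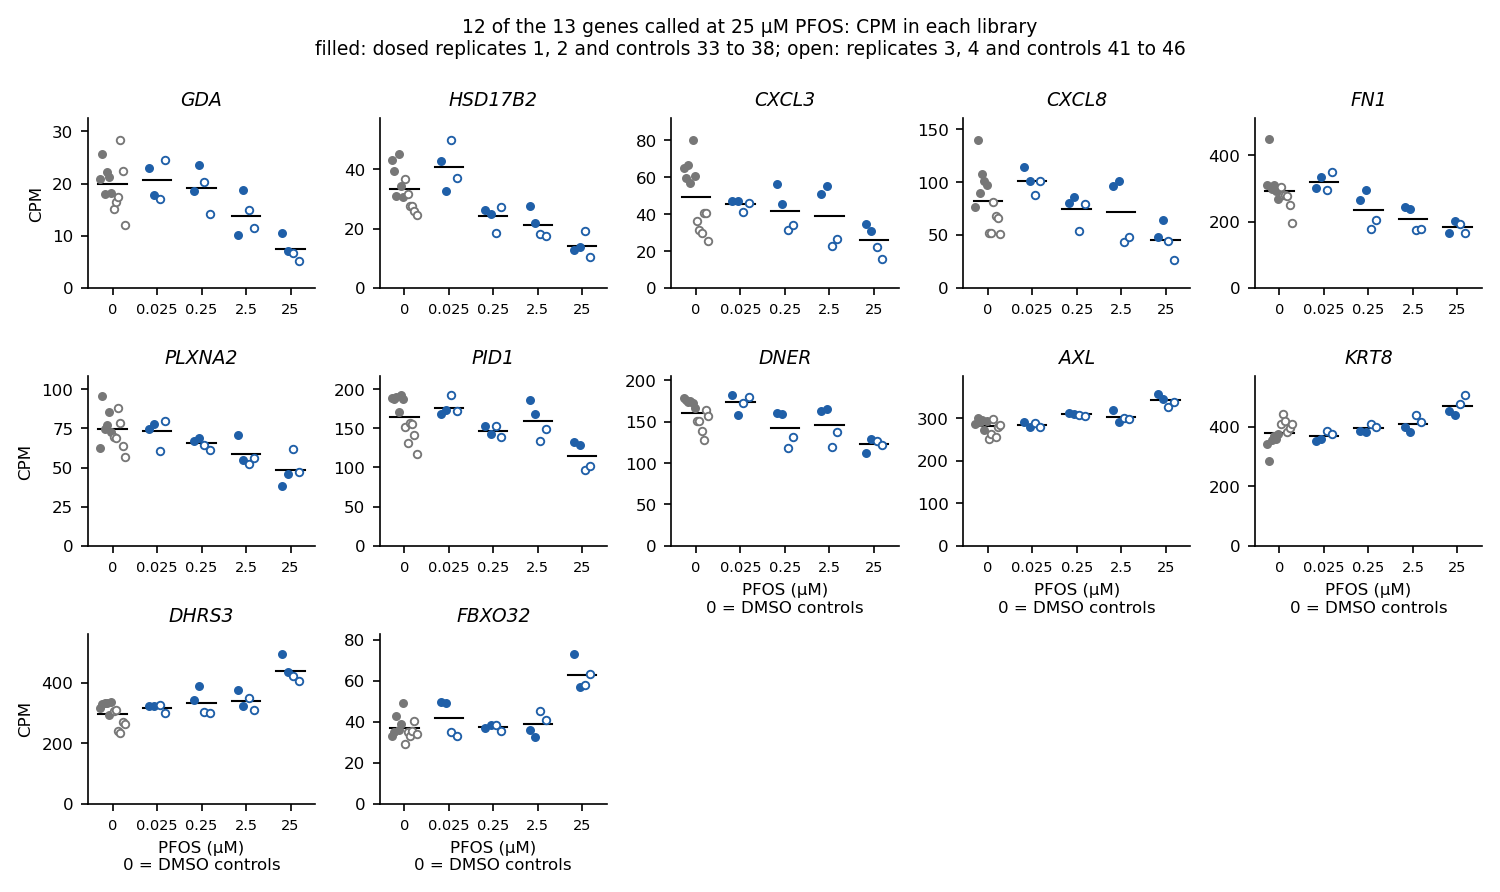
Level of 12 of the 13 genes called at 25 µM, in CPM (linear axes), in every library, against the PFOS dose in µM; 0 stands for the DMSO controls. Filled points are the low-numbered libraries, open points the high-numbered ones, and the short bar is the group mean. All 4 libraries at 25 µM lie below every control for HSD17B2 and GDA and above every control for FBXO32, DHRS3 and AXL.

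Among enzymes, HSD17B2 fell with the smallest adjusted p. It oxidises estradiol to the weaker estrone and testosterone to androstenedione, and lies at chr16:82035004-82098534 on the plus strand (GRCh38, GENCODE v29). The controls had a lowest, median and highest HSD17B2 level of 24.7, 31.5 and 45.1 CPM. The 4 replicates had 43.02, 32.7, 50.1 and 37.3 CPM at 0.025 µM, 26.4, 25.1, 18.5 and 27.2 CPM at 0.25 µM, 27.7, 21.8, 18.1 and 17.7 CPM at 2.5 µM and 12.98, 13.7, 19.3 and 10.5 CPM at 25 µM. Levels at 0.025 µM overlapped the controls, and all 4 libraries at 25 µM lay below the lowest control. At 25 µM the level of HSD17B2 was 2.38-fold lower than in the controls (log2 difference -1.25 ± 0.18, SE; edgeR adjusted p = 2.75e-06). At 2.5 µM the log2 difference of HSD17B2 was -0.67 ± 0.15 (edgeR adjusted p = 0.149), short of the threshold. Over the 4 doses its slope was -0.48 ± 0.063 log2 per 10-fold rise in dose (SE, edgeR adjusted p = 3.20e-07). HSD17B2 was called at 25 µM under every alternative run, including within each set of library numbers, where its log2 difference was -1.46 (low-numbered) and -0.99 (high-numbered). The fall of HSD17B2 against the 3 lower doses (log2 -0.96 ± 0.18, edgeR adjusted p = 0.00286) was lost without replicate 1 or 4 (edgeR adjusted p = 0.178 to 0.612, log2 -0.86 to -0.83) and within each set (edgeR adjusted p = 0.0527 to 0.308). Of 17 tested genes of a list of estrogen metabolism drawn up after these values were seen, HSD17B2 was the 1 called (0.0668% of all genes were), and the median log2 difference of that list was 0.013.

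GDA, guanine deaminase, converts guanine to xanthine. Its 4 libraries at 25 µM had 10.6, 7.15, 6.73 and 5.23 CPM, against 12.1, 19.5 and 28.4 CPM as the lowest, median and highest control. At 2.5 µM GDA stood at 10.2 to 18.8 CPM, so the highest library at 25 µM overlapped the lowest at 2.5 µM, and all 4 lay below every control. The difference from the controls at 25 µM was 2.79-fold lower (log2 -1.48 ± 0.23, edgeR adjusted p = 1.99e-05), and GDA also fell along the doses (slope -0.50 ± 0.081 log2 per 10-fold dose, edgeR adjusted p = 8.88e-05) and against the lower doses (log2 -1.30 ± 0.23, edgeR adjusted p = 0.00142). GDA lies at chr9:72114595-72257193 on the plus strand. The trend of GDA was lost without replicate 4 (edgeR adjusted p = 0.0643, log2 -0.43), and its difference from the lower doses without replicate 3 or 4 (edgeR adjusted p = 0.0636 to 0.117, log2 -1.26 to -1.17). Within the low-numbered libraries alone the call of GDA at 25 µM was lost, with a log2 difference of -1.23 (edgeR adjusted p = 0.0947), against -1.65 within the high-numbered ones (edgeR adjusted p = 0.00152).

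DHRS3, which reduces retinaldehyde to retinol and so limits retinoic acid, rose. Its level was 496, 435, 422 and 404 CPM in the 4 libraries at 25 µM and 233, 308 and 334 CPM in the lowest, median and highest control. All 4 libraries lay above every control. The rise was 1.47-fold (log2 0.56 ± 0.11, edgeR adjusted p = 0.00387), and at 2.5 µM the log2 difference of DHRS3 was 0.19 ± 0.11, which did not pass (edgeR adjusted p = 0.913). The call of DHRS3 was lost without replicate 1 (edgeR adjusted p = 0.152, log2 0.50) and with DMSO and water controls as 1 group (log2 0.44). DHRS3 lies at chr1:12567910-12617731 on the minus strand. Of 16 tested retinoid pathway genes, a list drawn up after values were seen, DHRS3 alone was called (0.0668% of all genes were), and the retinol transporter STRA6 had 39.3 to 48.4 CPM at 25 µM within the control range of 30.96 to 52.6 CPM. ALDH3A1, an aldehyde dehydrogenase and a target of the aryl hydrocarbon receptor, rose at 25 µM against the lower doses (log2 0.95 ± 0.21, edgeR adjusted p = 0.0378) but not against the controls (log2 0.58 ± 0.20, edgeR adjusted p = 0.544). Its mean at 25 µM was 30.04 ± 9.56 CPM (SD, n = 4), and at 0.25 µM it was 11.8 ± 4.04 CPM, below the control median of 21.3 CPM. The rise of ALDH3A1 against the lower doses was lost without replicate 1, 3 or 4 (edgeR adjusted p = 0.0746 to 0.7403, log2 0.88 to 0.96).

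Of the genes of the matrix, FN1 fell at 25 µM. FN1, fibronectin, the matrix glycoprotein that cells bind through integrin alpha 5 beta 1, lies at chr2:215360440-215436172 on the minus strand. Its libraries had 302, 334, 296 and 350.3 CPM at 0.025 µM, 266, 296, 178 and 203 CPM at 0.25 µM, 245, 237, 175 and 177 CPM at 2.5 µM and 167, 203, 193 and 166 CPM at 25 µM, with controls from 196, 287 and 450.2 CPM (lowest, median, highest). Of the libraries at 25 µM, 3 lay below the lowest control, and FN1 was 1.61-fold lower there (log2 -0.69 ± 0.11, edgeR adjusted p = 7.08e-05). At 2.5 µM the log2 difference of FN1 was -0.50 ± 0.11 (edgeR adjusted p = 0.0761). The slope of FN1 was -0.26 ± 0.041 log2 per 10-fold dose (edgeR adjusted p = 5.57e-05).

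LAMB3 and LAMA3, chains of laminin-332, had no call at 25 µM: LAMB3 differed by a log2 of -0.45 ± 0.12 (edgeR adjusted p = 0.215) and LAMA3 by -0.25 ± 0.14 (edgeR adjusted p = 0.824). LAMB3 stood at 562, 624, 547 and 500.3 CPM at 25 µM and 714, 775, 816 and 894 CPM at 0.025 µM, with controls from 560.2 to 893 CPM. LAMA3 stood at 63.01, 69.5, 64.9 and 75.3 CPM at 25 µM and 96.96, 105, 85.1 and 113 CPM at 0.025 µM, with controls from 64.5 to 98.9 CPM. For both, every library at 25 µM was below every library at 0.025 µM. Of the 27 tested of 28 adhesion, matrix and epithelial-mesenchymal genes, 2 were called, both lower (0.0462% of all genes were) and FN1 among them, 1 was higher and 7 lower at an unadjusted p under 0.05 (2.89% and 3.24% of all genes), and the list's median log2 difference was -0.063 beside -0.012 over all genes tested. Of the receptors, integrin alpha 6 (ITGA6) differed by -0.30 ± 0.13 and integrin beta 4 (ITGB4) by -0.00070 ± 0.13, neither called (edgeR adjusted p = 0.747 for ITGA6). Of 8 fibroblast markers 3 were above 1 CPM at 25 µM, with a summed level of 63.8 to 90.1 CPM at 0.025 µM, 40.2 to 56.1 CPM at 25 µM and 50.8 to 89.1 CPM in the controls, most of it from DCN and FAP. Of these markers COL1A2 and PDGFRA were at 0 at 25 µM. DCN differed by a log2 of -0.48 at 25 µM (edgeR adjusted p = 0.675) and FAP by -0.025 (edgeR adjusted p = 0.991). In the fit of the PFOS libraries alone given further on, DCN was called falling (slope -0.23 ± 0.054, edgeR adjusted p = 0.0210). It kept that call in 12 of 16 leave-outs of 1 library. The part of the fibroblast markers in the fall of FN1 was not tested.

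**Figure D2:**
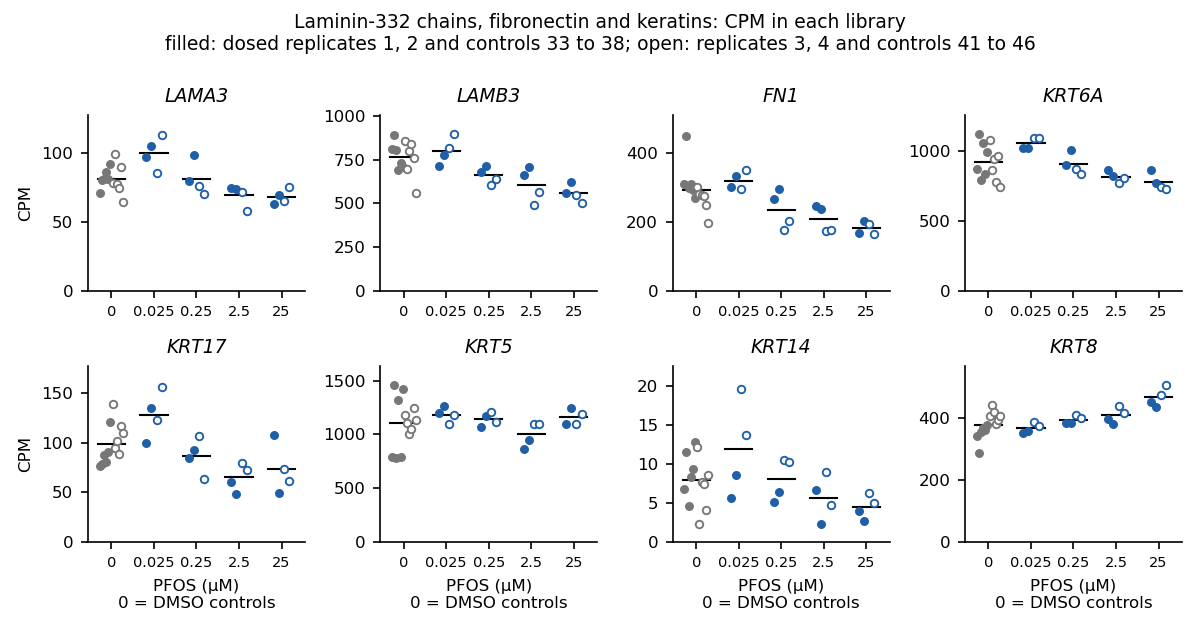
Level in CPM (linear axes) of the laminin-332 chains LAMA3 and LAMB3, of FN1 and of the keratins KRT6A, KRT17, KRT5, KRT14 and KRT8 in every PFOS library by dose in µM and in the DMSO controls (0); filled points are low-numbered and open points high-numbered libraries, and bars are group means. Of the FN1 libraries at 25 µM 3 of the 4 lie below every control; for KRT5 the groups overlap.

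Among keratins, which form the intermediate filaments of epithelium, KRT8 of simple and luminal epithelium rose at 25 µM. KRT8 was at 452, 437, 474 and 506 CPM there and at 286, 379 and 442 CPM in the lowest, median and highest control, so 3 of the 4 libraries lay above all controls. The log2 difference was 0.31 ± 0.071 (edgeR adjusted p = 0.0495), the call nearest the threshold, and it was lost without replicate 2, 3 or 4 or without control 33, 34, 35, 36, 37, 38 or 44 (edgeR adjusted p = 0.0519 to 0.8597, log2 0.27 to 0.34). Without controls 34, 36 and 38, of high mitochondrial share, the log2 difference of KRT8 was 0.26 (edgeR adjusted p = 0.321). KRT8 differed by 0.36 (edgeR adjusted p = 0.602) within the low-numbered libraries and 0.26 (edgeR adjusted p = 0.0467) within the high-numbered ones. KRT8 lies at chr12:52897187-52949954 on the minus strand, has many processed copies in the genome, and its counts are uncertain to that extent. Its filament partner KRT18 had a log2 difference of 0.21 ± 0.11 (edgeR adjusted p = 0.824). The basal keratins KRT5 and KRT14 differed by 0.066 ± 0.18 and -0.80 ± 0.47, and were not called (edgeR adjusted p = 0.974 and 0.827). Luminal markers summed to 1453 to 1862 CPM at 25 µM and 1419 to 1859 CPM in the controls, with PGR at 0 in every library. Of the 13 keratins tested, a list drawn up after values were seen, KRT8 was the 1 called, where 0.0668% of all genes were.

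Signalling genes made up the rest of the calls outside the chemokines. FBXO32 on chromosome 8 encodes atrogin-1, the substrate receptor of an SCF ubiquitin ligase that FOXO factors induce. It had 72.97, 56.8, 57.9 and 63.3 CPM in the 4 libraries at 25 µM against 28.98, 35.2 and 48.9 CPM in the controls, with no overlap. The difference was 1.67-fold (log2 0.74 ± 0.12, edgeR adjusted p = 7.92e-05). At the 3 lower doses the log2 differences of FBXO32 were 0.15, -0.0041 and 0.059, and it rose against these doses too (log2 0.67 ± 0.12, edgeR adjusted p = 0.00142), a call lost without replicate 4 (edgeR adjusted p = 0.117, log2 0.63). Within the low-numbered libraries alone the difference of FBXO32 from the controls was 0.72 and not called (edgeR adjusted p = 0.0968), against 0.81 within the high-numbered ones (edgeR adjusted p = 5.90e-04).

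AXL, the receptor tyrosine kinase for GAS6, lies at chr19:41219203-41261766 on the plus strand and had 358, 346, 326 and 339.9 CPM at 25 µM, above the controls' 251 to 301 CPM in all 4 libraries. Its rise was small, log2 0.28 ± 0.063 (edgeR adjusted p = 0.0389), and the call was lost without replicate 1, 2, 3 or 4 or without control 37, 41 or 44 (edgeR adjusted p = 0.0563 to 0.322, log2 0.26 to 0.31). AXL differed by 0.28 (edgeR adjusted p = 0.703) within the low-numbered libraries and 0.29 (edgeR adjusted p = 0.0414) within the high-numbered ones. PLXNA2, plexin A2, a semaphorin receptor at chr1:208022242-208244320 on the minus strand, fell to 38.1, 46.1, 62.1 and 46.9 CPM from a control median of 73.6 CPM (log2 -0.61 ± 0.14, edgeR adjusted p = 0.0485), and its call was lost without replicate 1, 2 or 4 or without control 34, 35, 36, 37, 38, 43 or 44 (edgeR adjusted p = 0.05004 to 0.433, log2 -0.61 to -0.52). It differed by -0.88 (edgeR adjusted p = 0.00868) within the low-numbered libraries and -0.37 (edgeR adjusted p = 0.549) within the high-numbered ones. The call of PLXNA2 was also lost without controls 34, 36 and 38, of high mitochondrial share (edgeR adjusted p = 0.264), and with DMSO and water controls as 1 group. DNER, a Notch-like transmembrane protein at chr2:229357629-229714558 on the minus strand, fell to 113, 129, 126 and 122 CPM from a control median of 165 CPM (log2 -0.40 ± 0.084, edgeR adjusted p = 0.01197), a call lost without replicate 1, 3 or 4 (edgeR adjusted p = 0.0718 to 0.212, log2 -0.41 to -0.36). DNER differed by -0.51 (edgeR adjusted p = 0.0947) within the low-numbered libraries and -0.27 (edgeR adjusted p = 0.422) within the high-numbered ones, and by -0.37 without controls 34, 36 and 38 (edgeR adjusted p = 0.1101). DNER also fell along the doses, with a slope of -0.15 ± 0.032 (edgeR adjusted p = 0.0292), lost without replicate 1, 2, 3 or 4 (edgeR adjusted p = 0.0511 to 0.784, log2 -0.17 to -0.13).

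PID1, an adaptor that binds the LRP1 receptor, lies at chr2:228850526-229271285 on the minus strand. It had 132, 129, 97.4 and 102 CPM at 25 µM, against 117, 164 and 192 CPM in the lowest, median and highest control, and 2 of the 4 libraries lay below every control. The log2 difference of PID1 was -0.53 ± 0.099 (edgeR adjusted p = 0.00174), its slope -0.18 ± 0.037 (edgeR adjusted p = 0.0211) and its difference from the lower doses -0.49 ± 0.098 (edgeR adjusted p = 0.01397). PID1 differed by -0.50 (edgeR adjusted p = 0.188) within the low-numbered libraries and -0.50 (edgeR adjusted p = 0.00323) within the high-numbered ones. The call of PID1 at 25 µM was lost without replicate 3 or 4 (edgeR adjusted p = 0.155 to 0.1702, log2 -0.48 to -0.45), its trend without replicate 2, 3 or 4 (edgeR adjusted p = 0.0511 to 0.784, log2 -0.20 to -0.13) and its difference from the lower doses without replicate 3 or 4 (edgeR adjusted p = 0.507 to 0.612, log2 -0.46 to -0.41).

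The chemokines CXCL1, CXCL2, CXCL3 and CXCL8, of the CXC family, draw neutrophils through the receptors CXCR1 and CXCR2, and their genes are classic targets of NF-kappaB. Promoters are shown of CXCL3 and CXCL8, called at 25 µM, of CXCL1 and LAMA3, which fell along the doses in the fit of the PFOS libraries alone given further on, and of CXCL2, a close copy of CXCL3 with no call. Each line gives the 150 bases before the RefSeq start site (GRCh38.p14), read 5′ to 3′ on the gene's strand, and capitals mark matches to the kappaB sequence GGAATTTCC or the AP-1 sequence TGANTCA, searched on both strands. The intervals are chr4:73869243-73869392 (plus) for CXCL1, chr4:74099196-74099345 (minus) for CXCL2, chr4:74038690-74038839 (minus) for CXCL3, chr4:73740419-73740568 (plus) for CXCL8 and chr18:23872870-23873019 (plus) for LAMA3. The LAMA3 stretch precedes a start inside the gene, which spans chr18:23689443-23956222 in GENCODE v29. The CXCL2, CXCL3 and CXCL8 stretches also run into the GENCODE v29 spans of their genes.
CXCL1: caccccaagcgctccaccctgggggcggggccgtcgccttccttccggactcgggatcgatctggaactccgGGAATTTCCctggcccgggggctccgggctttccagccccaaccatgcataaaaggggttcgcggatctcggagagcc
CXCL2: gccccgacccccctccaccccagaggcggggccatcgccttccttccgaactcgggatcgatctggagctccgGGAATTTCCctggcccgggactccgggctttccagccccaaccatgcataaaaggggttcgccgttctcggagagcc
CXCL3: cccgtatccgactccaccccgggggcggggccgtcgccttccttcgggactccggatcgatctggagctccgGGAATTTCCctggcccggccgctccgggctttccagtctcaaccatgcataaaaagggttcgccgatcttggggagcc
CXCL8: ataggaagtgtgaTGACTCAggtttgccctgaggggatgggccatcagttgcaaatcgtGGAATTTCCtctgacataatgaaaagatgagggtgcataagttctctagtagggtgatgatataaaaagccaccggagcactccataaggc
LAMA3: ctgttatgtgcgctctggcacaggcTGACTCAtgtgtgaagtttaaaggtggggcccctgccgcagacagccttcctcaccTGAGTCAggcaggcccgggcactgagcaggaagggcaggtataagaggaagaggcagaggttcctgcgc
The kappaB match began at base -78 in CXCL1, -77 in CXCL2, -78 in CXCL3 and -91 in CXCL8. The AP-1 match began at base -137 in CXCL8 and at bases -125 and -69 in LAMA3. In the 250 bases before the start, 0.398% of the 11567 tested genes in the table held this kappaB sequence and 4.288% the AP-1 sequence. Of the 59 genes that fell in the fit of the PFOS libraries alone, 42 were in the table, and 3 of these held the kappaB sequence and 4 the AP-1 sequence. The promoters of FN1 and GDA, also called at 25 µM, held neither and are not printed. The FN1 window runs into the GENCODE v29 span of its gene, and the GDA window lies inside that of GDA. All promoters printed were ones with a match. The matches are a description of these windows and say nothing of which factor bound.

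CXCL8 (interleukin 8, chr4:73740506-73743716, plus strand) and CXCL3 (chr4:74036589-74038807, minus strand) were lower at 25 µM. CXCL8 had 47.9, 64.1, 44.7 and 26.1 CPM against 50.6, 78.7 and 139.9 CPM in the lowest, median and highest control, and 3 of the 4 libraries lay below every control. It was 1.88-fold lower (log2 -0.91 ± 0.21, edgeR adjusted p = 0.0483), with a slope of -0.36 ± 0.075 (edgeR adjusted p = 0.0211). CXCL3 had 34.9, 30.8, 22.4 and 15.8 CPM against 25.2, 48.7 and 80.4 CPM, and was 2.06-fold lower (log2 -1.04 ± 0.22, edgeR adjusted p = 0.0116). The CXCL3 controls of the low-numbered set had 56.7 to 80.4 CPM and those of the high-numbered set 25.2 to 40.7 CPM, without overlap. Within each set the pair of 25 µM libraries lay below all controls of its own set. The call of CXCL8 at 25 µM was lost without replicate 1, 3 or 4 or without control 34, 35, 36, 37 or 38 (edgeR adjusted p = 0.0697 to 0.901, log2 -0.94 to -0.69), its trend without replicate 1, 3 or 4 (edgeR adjusted p = 0.0853 to 0.991, log2 -0.37 to -0.28), and the call of CXCL3 without replicate 3 or 4 (edgeR adjusted p = 0.155 to 0.6395, log2 -0.98 to -0.84). Without controls 34, 36 and 38, of high mitochondrial share, CXCL8 differed by -0.69 (edgeR adjusted p = 0.386) and CXCL3 by -0.96 (edgeR adjusted p = 0.1003). CXCL1, CXCL2 and CXCL3 are near-identical copies in places, so the share of reads among them is uncertain.

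The other chemokine and cytokine genes had no call. CXCL1 had 936, 1077, 604 and 507 CPM at 25 µM (log2 -0.61 ± 0.16, edgeR adjusted p = 0.1499), and its controls split into 1376 to 1719 CPM in the low-numbered set and 582 to 1092 CPM in the high-numbered set. CSF3, the granulocyte growth factor, had a log2 difference of -0.60 ± 0.18 (edgeR adjusted p = 0.374) and split likewise, 899 to 1234 against 443 to 770.4 CPM. With a term for the set of library numbers in the model, CXCL1 (log2 -0.61 ± 0.14, edgeR adjusted p = 0.0203) and CSF3 (log2 -0.60 ± 0.13, edgeR adjusted p = 0.0105) were called too, and 27 genes in all, among them the 13 above. CXCL2 differed by -0.18 ± 0.16, and the inhibitor NFKBIA by -0.027 ± 0.067 (edgeR adjusted p = 0.894 and 0.969). Of the 18 tested of 19 inflammatory and acute phase genes, 2 were called, both lower (0.0462% of all genes tested were). A log2 difference below 0 was found for 16 of them, as for 10108 of all 19468 genes tested. At an unadjusted p under 0.05 in edgeR 11 were lower (3.24% of all genes tested were), and the median was -0.60, beside -0.012 over all genes. The alarmins S100A8 and S100A9 differed by -1.23 ± 0.41 and -1.34 ± 0.40, neither called (edgeR adjusted p = 0.489 and 0.374). Controls of the low- and high-numbered sets split without overlap for S100A8 (29.9 to 74.04 against 7.89 to 17.7 CPM) and S100A9 (31.5 to 97.5 against 9.81 to 30.1 CPM). Those of NFKBIA did so too (473 to 567 against 425 to 462 CPM). Among 15 NF-kappaB subunits and feedback genes, a list drawn up after values were seen, none was called in edgeR, 13 lay below 0 and 5 were lower at an unadjusted p under 0.05 (NFKBIZ, TNIP1, TNFAIP3, NFKB2 and RELB).

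**Figure D3:**
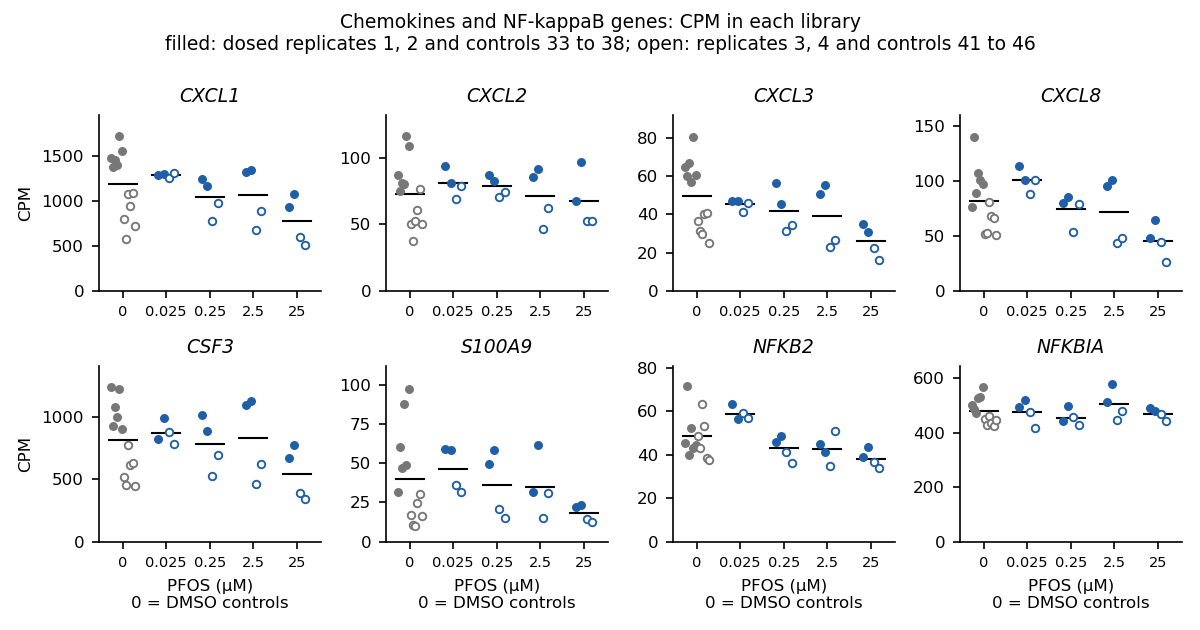
Level in CPM (linear axes) of CXCL1, CXCL2, CXCL3, CXCL8, CSF3, S100A9, NFKB2 and NFKBIA in every PFOS library by dose in µM and in the DMSO controls (0). Filled points are low-numbered and open points high-numbered libraries, and bars are group means. For CXCL1, CXCL3, CSF3, S100A9 and NFKBIA the filled controls lie above all open controls.

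The lower doses gave a pair of calls that were not called at 25 µM. ALYREF, an mRNA export adaptor, rose at 0.25 µM (131, 89.2, 128 and 116 CPM against 52.3, 77.9 and 90.1 CPM in the lowest, median and highest control, log2 0.61 ± 0.12, edgeR adjusted p = 0.0316). AIF1L, an actin-bundling protein, rose at 2.5 µM (7.53, 8.58, 11.4 and 8.41 CPM against 1.74, 4.03 and 6.68 CPM, log2 1.24 ± 0.25, edgeR adjusted p = 0.0379). Their log2 differences at 25 µM were 0.29 ± 0.12 and 0.90 ± 0.28. The call of ALYREF was lost without replicate 1, 3 or 4 or without control 33, 41, 42, 44 or 46 (edgeR adjusted p = 0.0502 to 0.655, log2 0.55 to 0.61). That of AIF1L was lost without replicate 2, 3 or 4 or without control 33, 34, 35, 38 or 41 (edgeR adjusted p = 0.0517 to 0.792, log2 1.08 to 1.28), and in DESeq2 as well. Within the low-numbered libraries neither was called, and within the high-numbered ones ALYREF was (log2 0.81, edgeR adjusted p = 7.07e-06) and AIF1L was not (log2 1.19, edgeR adjusted p = 0.181).

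The trend was also fitted without the other chemicals and controls. In the fit of the 16 PFOS libraries alone, with log10 dose as a number, 85 of 14675 genes were called, 26 rising (0.177%) and 59 falling (0.402%), where the fit of all 96 plate libraries called 7, all of which were among the 85. Within the low-numbered libraries the latter fit no longer called the trend of FN1, GDA, CXCL8, PID1 and DNER (edgeR adjusted p = 0.0595 for FN1 and 0.7398 or more for the others). The called genes named in this and the next paragraph were chosen from the 85 after their values were seen. Slopes are log2 per 10-fold dose with their SE. The laminin-332 chains LAMB3 and LAMA3 fell, with slopes of -0.17 ± 0.026 for LAMB3 (edgeR adjusted p = 4.36e-05) and -0.19 ± 0.036 for LAMA3 (edgeR adjusted p = 0.001500). The keratins of activated and basal epithelium KRT6A (-0.15 ± 0.021), KRT17 (-0.31 ± 0.050) and KRT14 (-0.47 ± 0.11) fell as well (edgeR adjusted p = 7.23e-06, 2.00e-04 and 0.0239), while KRT8 rose (0.11 ± 0.021, edgeR adjusted p = 0.00302). Of the same class KRT5 (-0.028 ± 0.023), KRT16 (-0.092 ± 0.16) and KRT6B (-0.068 ± 0.16) were not called (edgeR adjusted p = 0.735, 0.891 and 0.927), nor was KRT18, the partner of KRT8 (0.072 ± 0.023, edgeR adjusted p = 0.142). KRT14 lost its call without 4 of the 16 libraries in turn (replicates 3 and 4 of 0.025 µM, 2 and 4 of 25 µM), its slope running from -0.54 to -0.35, and the other 5 called genes of this paragraph kept theirs. In the 4 fits that left out 1 replicate number of every dose, KRT14 was called in 1 and KRT8 in 3. LAMB3, LAMA3, KRT6A and KRT17 were called in all 4. At 0.025 µM the log2 differences from the controls were 0.39 for KRT17 and 0.30 for LAMA3, above 0 and not called.

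KRT17 stood at 99.5, 135, 124 and 156 CPM at 0.025 µM, 84.7, 93.2, 107 and 63.1 CPM at 0.25 µM, 60.2, 47.9, 79.8 and 72.5 CPM at 2.5 µM and 108, 49.7, 73.9 and 61.6 CPM at 25 µM, with controls from 77.1 to 139 CPM. The libraries at 0.025 µM lay above all those at 2.5 µM and above 3 of the 4 at 25 µM. Without the 25 µM dose 11 genes fell and 0 rose (edgeR adjusted p under 0.05 over 14122 genes), and 8 of them were among the 85, these including LAMB3, LAMA3, FN1, KRT6A, KRT17, HSD17B2 and EPN1, an endocytic adaptor. The slope of HSD17B2 over the 3 lower doses was -0.48 (edgeR adjusted p = 0.00319) and that of FN1 -0.31 (edgeR adjusted p = 0.00219). Of the chemokine genes CXCL8, CXCL1 and CXCL3 fell over the 16 libraries, with slopes of -0.35 ± 0.058, -0.21 ± 0.045 and -0.25 ± 0.065 (edgeR adjusted p = 2.02e-04, 0.00761 and 0.0456), as did NFKB2, an NF-kappaB subunit (-0.20 ± 0.043, edgeR adjusted p = 0.00984). These were 3 of 8 tested CXC chemokine and receptor genes and 1 of 15 NF-kappaB subunits and feedback genes, where 0.402% of all genes fell. Both lists were drawn up after values were seen. CXCL2 (-0.10 ± 0.047), RELB (-0.14 ± 0.051) and NFKBIA (0.0084 ± 0.024) were not called (edgeR adjusted p = 0.391, 0.223 and 0.943), nor were CXCL5, CXCL16 and NFKBIZ. The calls of CXCL1 and NFKB2 were lost without replicate 4 of 25 µM, and that of CXCL3 without any 1 of 10 libraries (all 4 of 0.025 µM, replicate 1 of 0.25 µM, 3 and 4 of 2.5 µM, and 2, 3 and 4 of 25 µM). Over the 16 leave-outs the slope of CXCL1 ran from -0.26 to -0.17, that of NFKB2 from -0.22 to -0.18 and that of CXCL3 from -0.29 to -0.19. Within the low- and the high-numbered libraries the slopes were -0.090 and -0.38 for CXCL1, -0.11 and -0.41 for CXCL3 and -0.23 and -0.49 for CXCL8. SLC39A8, an importer of zinc and manganese, had a slope of -0.24 ± 0.037 (edgeR adjusted p = 8.22e-05), KYNU, kynureninase of tryptophan breakdown, of -0.14 ± 0.025 (edgeR adjusted p = 0.00111), and TFRC, the transferrin receptor, of -0.16 ± 0.030 (edgeR adjusted p = 0.00203). Leaving out 1 library at a time gave 36 (without replicate 4 of 25 µM) to 120 genes (without replicate 1 of 0.025 µM), and all 85 kept their direction each time. Leaving out replicate 1, 2, 3 or 4 of every dose gave 93, 72, 34 and 14 genes, of which 57, 58, 30 and 14 were among the 85. All 85 again kept their direction. KYNU and TFRC were each called in 3 of these 4 fits, and SLC39A8 in all 4. The low-numbered libraries alone gave 12 genes and the high-numbered ones 155.

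Pathways on which these acids act in other tissues showed no call at 25 µM, where 0.0668% of all genes were called. At that share, a list of this size without a call says little about its pathway. Of 23 tested PPAR receptors and target genes, 0 were called in edgeR (4 were higher and 1 lower at an unadjusted p under 0.05, as were 2.89% and 3.24% of all genes), with a median log2 difference of 0.056. PDK4, the kinase that holds back pyruvate oxidation and a PPAR target, had 16.8, 25.1, 36.5 and 29.4 CPM at 25 µM and 13.6, 17.8 and 30.6 CPM in the lowest, median and highest control (log2 0.55 ± 0.18, edgeR adjusted p = 0.401). The lipase inhibitor ANGPTL4 and the carnitine transferase CPT1A differed by 0.16 ± 0.085 and -0.12 ± 0.25 (edgeR adjusted p = 0.821 and 0.963). Of 24 genes of sterol synthesis and uptake 0 were called, with a median of -0.044, and 17 lay below 0. In edgeR 1 of these (TM7SF2) was higher and 3 (FDPS, MVD and LSS) lower at an unadjusted p under 0.05. Of 17 genes of fatty acid synthesis 0 were called, and 1 was higher and 0 lower at that unadjusted p. FASN and SCD differed by -0.031 ± 0.082 and -0.085 ± 0.087.

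Stress and growth lists gave no call at 25 µM against the controls either, where 0.0668% of all genes were called. Among 20 NRF2 targets, which respond to electrophiles, HMOX1 differed by 0.51 ± 0.27 and NQO1 by 0.096 ± 0.063, with a list median of 0.030. Among 15 genes of the endoplasmic reticulum chaperone response, HSPA5 differed by -0.033 ± 0.081, and none had an unadjusted p under 0.05 in edgeR. The 15 G1 cyclins, CDKs and inhibitors had a median of -0.066: CCND1, CDK4, CDK6, CDKN1A and CDKN1B differed by -0.024, 0.042, -0.16, -0.066 and -0.0090. Of that list CCNE1 (log2 -0.41) was lower at an unadjusted p under 0.05 in edgeR. The 19 DNA replication and 19 mitosis genes had medians of -0.086 and 0.013, and none had an unadjusted p under 0.05 in edgeR. Of the replication genes 16 lay below 0, as did 10108 of all 19468 genes tested. In the fit of the 16 PFOS libraries, given above, RECQL4 of the replication list fell (slope -0.17 ± 0.038, edgeR adjusted p = 0.0163), where 0.402% of all genes did. It kept that call in 11 of 16 leave-outs of 1 library. CYP1A1, the classic target of the aryl hydrocarbon receptor, differed by 0.48 ± 0.35 and CYP1B1 by -0.15 ± 0.10. The intervals do not exclude differences as large as those called, such as 0.74 for FBXO32. That of HMOX1 ran from -0.026 to 1.05 and that of PDK4 from 0.20 to 0.90 (95%, log2). The PDK4 interval was wholly positive, without adjustment for the number of genes tested.

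**Figure D4:**
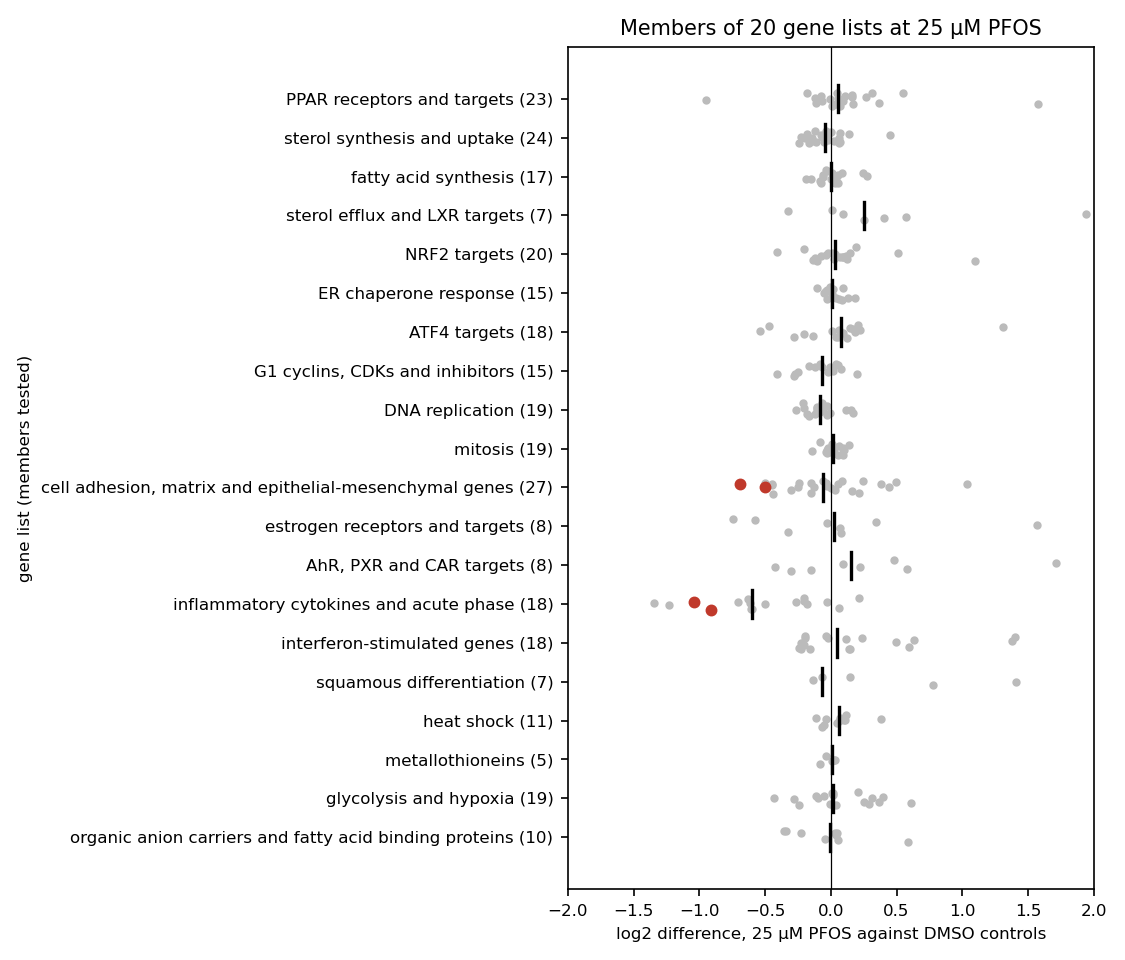
Log2 difference of each tested member of 20 gene lists at 25 µM against the DMSO controls; each point is a gene, red points are called genes and the black bar is the median of the list. Of 308 list entries 6 lie outside the axis; the inflammatory list has the lowest median, -0.60, and red points occur in that list and in the adhesion and matrix list.

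PFOS was set beside carboxylic perfluoroalkyl acids at 25 µM on the same plate, 4 libraries each: PFNA and PFDA in DMSO. Both end in a carboxylate where PFOS ends in a sulfonate, and the fluorinated chain of PFDA is also longer than that of PFOS. PFOS and PFNA were compared as 1 pair and PFOS and PFDA as another, each adjusted over 19468 genes. Against PFNA 0 genes were called in edgeR (0%; 1300 at an unadjusted p under 0.05, and DESeq2 called 3). Against PFDA 6 were called, 0.0308%. MCM10, a replication initiation factor, was lower with PFOS (36.4, 36.3, 34.3 and 36.7 CPM) than with PFDA (68.9, 61.01, 58.9 and 49.3 CPM), by a log2 of -0.73 ± 0.13 (edgeR adjusted p = 0.00652). CD70, the ligand of CD27, was higher with PFOS (36.04, 29.7, 36.6 and 42.2 CPM) than with PFDA (21.4, 19.9, 19.5 and 12.8 CPM), by 0.99 ± 0.20 (edgeR adjusted p = 0.0153). SYT8 and SYTL1, both of synaptotagmin type, were higher by 1.19 ± 0.24 and 1.24 ± 0.26, MT-CO1, a subunit of cytochrome oxidase, by 0.39 ± 0.082 and TINAGL1, a secreted matrix protein, by 0.62 ± 0.13 (edgeR adjusted p = 0.02005, 0.02803, 0.0291 and 0.0291). None of the 6 was called for PFOS against the controls in this fit. With a term for the set of library numbers SYT8 (0.75 ± 0.17) and TINAGL1 (0.45 ± 0.11) were called there (edgeR adjusted p = 0.0203 and 0.0348), and in the fit of the 16 PFOS libraries SYT8 (slope 0.31 ± 0.064) and CD70 (slope 0.28 ± 0.062) rose with dose (edgeR adjusted p = 0.00687 and 0.0147). Without replicate 3 of the dosed groups 0 genes were called, and the adjusted p of MCM10 in edgeR was 0.248. The call of MCM10 was lost without replicate 1 or 3 (edgeR adjusted p = 0.0782 to 0.248, log2 -0.71 to -0.66), that of CD70 without replicate 3 or 4 (edgeR adjusted p = 0.248 to 0.536, log2 0.76 to 1.018), that of SYT8 without replicate 1, 3 or 4 (edgeR adjusted p = 0.0623 to 0.5399, log2 0.99 to 1.23) and that of SYTL1 without replicate 1, 3 or 4 (edgeR adjusted p = 0.0757 to 0.711, log2 0.85 to 1.25). That of MT-CO1 was lost without replicate 1, 2, 3 or 4 (edgeR adjusted p = 0.105 to 0.456, log2 0.33 to 0.43) and that of TINAGL1 without replicate 1, 2, 3 or 4 (edgeR adjusted p = 0.0638 to 0.497, log2 0.52 to 0.70).

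The 13 genes called for PFOS at 25 µM were chosen on the PFOS libraries, so their differences from the other acids are a description without a test. PFOS, PFNA and PFDA also share their DMSO controls. FBXO32 differed from the controls by 0.74 with PFOS, 0.057 with PFNA and 0.15 with PFDA, and the interval of the PFOS minus PFNA difference was 0.39 to 0.98. HSD17B2 differed by -1.25, -0.32 and -0.71, with intervals of -1.34 to -0.52 against PFNA and -0.96 to -0.12 against PFDA. GDA differed by -1.48, -0.63 and -0.35, with intervals of -1.40 to -0.31 and -1.65 to -0.61. FN1 differed by -0.69, -0.51 and -0.17, and its interval against PFNA, -0.44 to 0.079, held 0. PLXNA2 was at -0.61 with PFOS and -0.72 with PFNA, and this interval held 0 as well, -0.23 to 0.45. PFOA was given in water against water controls, so its values stand beside these without comparison: FBXO32 -0.17, HSD17B2 0.20, GDA -0.24 and FN1 0.32 (log2).

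**Figure D5:**
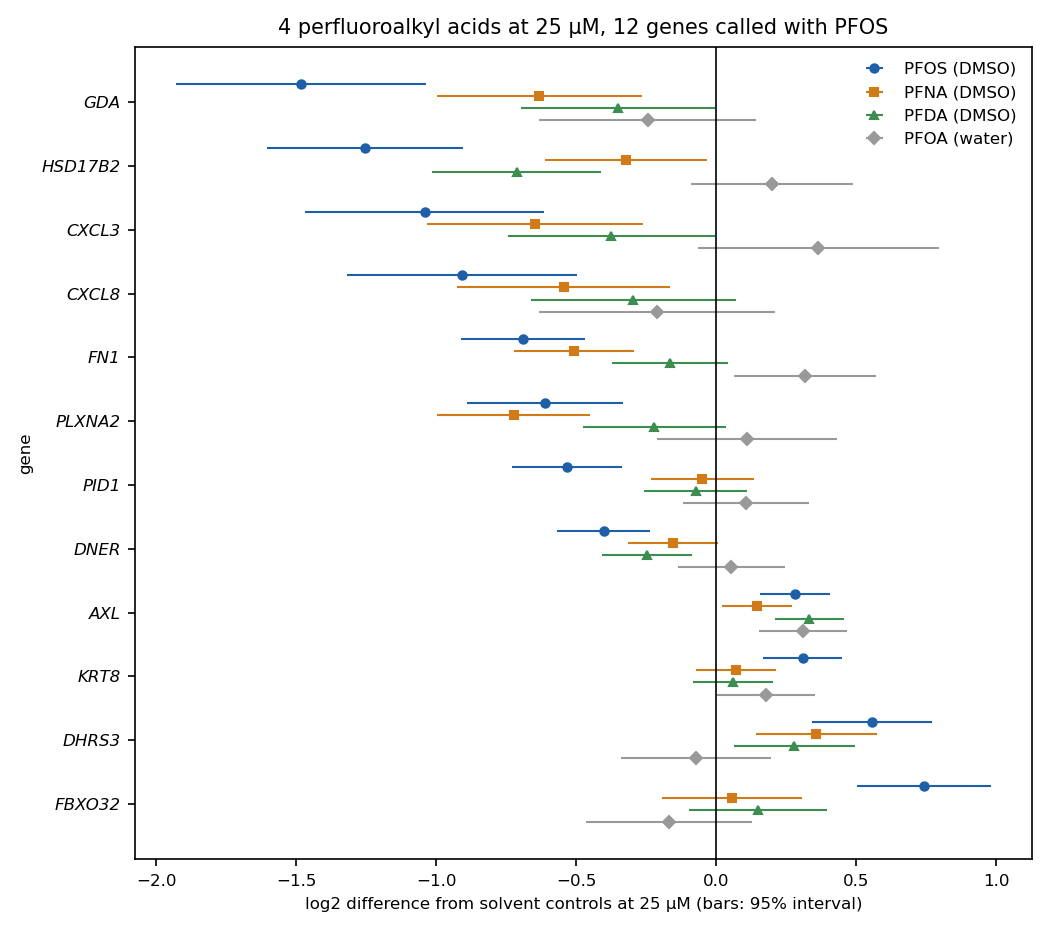
Log2 difference from the solvent controls at 25 µM, with its 95% interval, of 12 of the 13 genes called for PFOS, for PFOS, PFNA and PFDA in DMSO and PFOA in water. The genes were chosen on the PFOS libraries, so PFOS stands furthest from 0 in part by that choice; PLXNA2 and AXL have a carboxylic acid at or beyond the PFOS value.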

How the data were processed

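RNA of 96 libraries on plate 3240-AT was measured as read counts, of which 28 are described here. The authors deposited whole-number counts for 34718 gene symbols per library, not normalized. Per the submitters' processing notes, FastQC, MultiQC, STAR, featureCounts and the build GRCh38 were used; the sources used here give neither versions nor the strand setting, so overlapping or antisense genes may share reads. No molecular identifiers are mentioned, so counts are reads.

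All 96 libraries were fitted in edgeR 4.0.16 (R 4.3.3, limma 3.58.1): filterByExpr by group (minimum count 10, minimum total 15), TMM scaling, 1 mean per chemical, dose and control solvent, and the quasi-likelihood F-test with its common dispersion from the 5% most abundant genes. P-values were adjusted by Benjamini-Hochberg over 19468 genes and called under 0.05. The trend weights the 4 doses by 3 and 1 on either side of the middle. CPM used TMM-scaled library sizes. Leaving out a replicate number removes it from every dosed group. Alternatives were RLE scaling, other filters, fewer libraries, a term or a split by library number, DESeq2 1.42.0, pooled solvents and left-out libraries. The fits were tested on simulated data.

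Named genes are every called gene of the PFOS comparisons, the 3 uncalled genes nearest the threshold at 25 µM, the extremes of each list, 23 fixed lipid, growth and stress genes where tested, and the 5 called genes of smallest p against PFNA and PFDA; any further gene was chosen after its values were seen. Results for a few of these genes are not reported here. The members and lists were chosen with earlier results of these data known. Gene positions are from GENCODE v29 and promoters from RefSeq (GRCh38.p14).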

Additional observations from a re-analysis of the deposited data

Results flagged for a closer look

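DHRS3 in replicate 4 of 0.025 µM stood at 299.13 CPM, apart from the other 3 libraries at 321.79 to 325.04 CPM. MCM10 in replicate 3 of 25 µM stood at 34.265 CPM, apart from the other 3 at 36.338 to 36.739 CPM. In both, the gap to the nearest library divided by the range of the group exceeded Dixon's 95% critical value for 4 samples. Of 96 groups checked (24 genes) these 2 passed, where chance gives about 1 in 20.

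Between PFOS and PFDA at 25 µM the difference itself was tested in edgeR, and 6 genes passed: MCM10 (log2 -0.73), CD70 (0.99), SYT8 (1.19), SYTL1 (1.24), MT-CO1 (0.39) and TINAGL1 (0.62). At 25 µM the share of counts from the mitochondrial genome was 7.47 to 8.96% with PFOS and 5.69 to 7.40% with PFDA, and its part in the difference of MT-CO1 was not tested.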

How the results depend on the processing

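Counts of called genes are in the order 0.025, 0.25, 2.5 and 25 µM, trend, against the lower doses, against PFNA and against PFDA, and were 0, 1, 1, 13, 7, 6, 0 and 6. RLE scaling left all 8 counts as they were. No gene filter gave 13, 9, 21, 59, 57, 31, 43 and 107, a CPM minimum of 1 gave 1, 1, 1, 15, 7, 6, 0 and 5, the compared groups and DMSO controls alone 0, 1, 0, 21, 25, 8, 2 and 12, and a term for the set of library numbers 0, 1, 5, 27, 16, 13, 3 and 21. The low-numbered libraries alone gave 0, 0, 0, 11, 1, 0, 2 and 0 and the high-numbered ones 78, 17, 23, 66, 312, 70, 17 and 162; the difference of the 25 µM effect between these sets had 0 genes in edgeR (831 at an unadjusted p under 0.05, smallest adjusted p 0.488; not run in another tool). DESeq2 gave 1, 4, 0, 19, 16, 5, 3 and 29, with 3 of its 16 trend genes rising where edgeR had 0 of 7. DMSO and water controls together gave 0, 3, 5 and 25 at the 4 doses. Of alternatives chosen after seeing the data, a trended dispersion gave 0, 1, 0, 13, 8, 5, 1 and 4, and leaving out the 4 controls of high mitochondrial share (34, 36 and 38 in DMSO, 1 in water) 1, 4, 3, 8, 7, 7, 0 and 6. Leaving out a replicate number or a control gave 0 to 1 genes at 0.025 µM, 0 to 2 at 0.25 µM, 0 to 3 at 2.5 µM and 5 to 20 at 25 µM, the highest without control 42; leaving out a replicate number gave 2 to 9 for the trend, 0 to 7 against the lower doses, 0 against PFNA and 0 to 7 against PFDA. Log10 dose as a number in the 16 PFOS libraries gave 85 trend genes.

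Libraries of the same replicate number correlated weakly. Over 7633 genes the 24 same-number pairs of doses had correlations of -0.0994 to 0.1246, and 2 exceeded 0.1. Of 16 libraries 7 correlated best with their own number. Whether the numbers pair the libraries is not settled by these values. With the number as a replicate block, 146 genes were called in the trend, 56 against the lower doses, 18 against PFNA and 15 against PFDA, and the same libraries with no block gave 85, 32, 16 and 2. Controls carry other numbers, so no block was possible against them.

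In the comparisons of the fit of all plate libraries, no named gene changed sign under an alternative where it was called. In the fit of the 16 PFOS libraries the slope of FBXO32, 0.20, was -0.040 without the 25 µM dose. Of uncalled genes at 25 µM, 8 of those named took both signs: CDKN1B (log2 -0.073 to 0.11), CPT1A (-0.22 to 0.17), CDK4 (-0.025 to 0.11), CDK6 (-0.35 to 0.041), CDKN1A (-0.16 to 0.011), CCND1 (-0.080 to 0.0079), FASN (-0.075 to 0.017) and ALDH3A1 (-0.0036 to 0.71). HSD17B2 and FN1 were called at 25 µM under all 27 alternatives. The depth, down to 4.65 M counts in the controls, limits genes of few counts, and the intervals given cover the spread between wells only.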

Other observations

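In the fit of the 16 PFOS libraries alone, 6 genes called rising with dose belonged to 2 families picked after their values were seen, the mitochondrially encoded and the ribosomal protein genes. Of 13 mitochondrially encoded protein genes 2 were called rising, MT-CO3 (slope 0.11 ± 0.024 log2 per 10-fold dose, edgeR adjusted p = 0.00687) and MT-CYB (0.094 ± 0.021, edgeR adjusted p = 0.0163), where 0.177% of all genes were. All 13 slopes were above 0, with a median of 0.064, 0.019 in the low-numbered libraries and 0.096 in the high-numbered ones. Of 84 ribosomal protein genes 4 were called rising (RPS18, RPL36, RPS28 and RPS19), again beside 0.177% of all genes. Of their slopes 83 were above 0, and the median was 0.066 (0.023 and 0.12 in the same sets). The median slope over all 14675 genes of the fit of the 16 libraries was 0.0015. RPS19 kept its call without each of the 16 libraries in turn, MT-CO3 lost it without replicate 1 of 25 µM (slopes 0.082 to 0.13), and MT-CYB, RPS18, RPL36 and RPS28 lost theirs without between 3 and 7 of them, replicate 4 of 0.025 µM among these for each. In the 4 fits that left out 1 replicate number of every dose, RPS19 and MT-CO3 were each called in 2. The median share of mitochondrial counts was 7.29, 7.61, 7.31 and 8.06% from the lowest to the highest dose. At 25 µM against the controls neither family had a call in edgeR, with medians of 0.10 and 0.089. Many ribosomal protein genes have processed copies, so their counts are uncertain.

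Among the 59 falling genes were RNA-binding and nuclear proteins named after their values were seen: HNRNPA0 (-0.15 ± 0.026, edgeR adjusted p = 9.65e-04), ATXN2L (-0.18 ± 0.037, edgeR adjusted p = 0.00687), TCOF1, a factor of ribosomal RNA transcription (-0.15 ± 0.029, edgeR adjusted p = 0.00326), and UHRF1, which maintains DNA methylation (-0.15 ± 0.029, edgeR adjusted p = 0.00293). These 4 kept their call without each of the 16 libraries in turn. In the 4 fits that left out 1 replicate number of every dose, HNRNPA0, ATXN2L and TCOF1 were called in 3 and UHRF1 in 2. With PFNA at 25 µM, on the same plate and against the same controls as PFOS, the log2 difference of HNRNPA0 was -0.53, and with PFOS -0.31, not called for PFOS in edgeR (adjusted p = 0.701).

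With a term for the set of library numbers, 14 further genes were called at 25 µM. They include S100P, a calcium-binding protein (log2 -1.27 ± 0.30, edgeR adjusted p = 0.0431), NAMPT, the NAD salvage enzyme (-0.41 ± 0.098, edgeR adjusted p = 0.0452), SLC39A8 (-0.53 ± 0.12, edgeR adjusted p = 0.0322) and EFEMP1, a fibulin of the matrix, which rose (0.30 ± 0.070, edgeR adjusted p = 0.0295). With the same term SULT1E1, the estrogen sulfotransferase, was called lower at 2.5 µM (-1.91 ± 0.40, edgeR adjusted p = 0.0303), where its libraries ranged over 1.09 to 2.52 CPM and the lowest, median and highest control 0.811, 6.88 and 12.4 CPM. The 3 uncalled genes nearest the threshold at 25 µM without the term were CES1P1, a pseudogene (log2 -0.90 ± 0.21, edgeR adjusted p = 0.0563), KYNU (-0.37 ± 0.087, edgeR adjusted p = 0.0649) and CHRNA9 (-2.60 ± 0.62, edgeR adjusted p = 0.0649).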
